A study of Homo sapiens with 8 samples.

Results

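Open chromatin of NCI-H295R cells, an established human adrenocortical carcinoma line, was compared between the EZH2 inhibitor EPZ-6438 (EZH2i) and the DMSO vehicle. The comparison uses 4 of the 8 samples of the series, 2 with EZH2i and 2 with vehicle, which the labels call biological replicates. The EZH2i cells received 62 µM EPZ-6438, described in the labels as the IC-50 dose, and the vehicle cells an equal volume of DMSO, both for 96 h. The other 4 samples are 2 with the CBP inhibitor PRI-724 (CBPi, 26 µM, 96 h) and 2 with forskolin (FSK, 10 µM for 48 h after 48 h of vehicle). All groups are the same single cell line, with 50000 cells per library. ATAC-seq, which marks open chromatin by the insertion of adapters by the transposase Tn5, was read as pairs of 150 bp. Each pair of libraries was deposited as 1 joint peak list on build hg38, which leaves no spread between replicates and allows no test between groups. Read depth is not known.

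The vehicle list held 61016 peaks over 42.7 Mb and the EZH2i list 41086 peaks over 31.5 Mb. A vehicle peak was called kept where it shared 1 bp or more with an EZH2i peak, and lost otherwise. An EZH2i peak was called gained where no vehicle peak overlapped it. Each peak carries the authors' area, a signal that adds up significance along the peak, and the smallest area was 200 in both lists. A peak whose area slips under that threshold leaves the list, so lost does not mean closed. Areas were compared only as ranks within a list. Peaks within 1 kb of a listed transcription start of a protein-coding gene were called promoter peaks. Those within 1 kb of an annotated gene end, but of no listed start, were called gene-end peaks, and the rest distal. Intervals in parentheses are 95% Wilson intervals. They take each peak as a separate draw and hold only the error of counting peaks.

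EZH2 is the catalytic subunit of Polycomb repressive complex 2 (PRC2), which methylates a lysine of histone H3 and so helps to hold developmental and other lineage-foreign genes silent. EED and SUZ12 are the core partners that the enzyme needs for activity, and RBBP4 is a histone chaperone of the complex. PRC1, the other main Polycomb complex, binds the methylated histone and adds ubiquitin to histone H2A. Catalytic inhibitors such as EPZ-6438 (tazemetostat) block the methyl transfer and leave the protein in place. CpG-rich promoters are the usual landing sites of PRC2 in mammalian cells. In the adrenal cortex, steroid hormones are made by a short chain of enzymes under the control of the nuclear receptor NR5A1 (SF1). Histone marks and RNA were not measured in these files.

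Promoter sequences show what kinds of start sites stood on each side of the comparison. The 250 bases upstream of the start are given 5′ to 3′ on the gene's strand, from RefSeq (GRCh38.p14), with CpG dinucleotides in capitals. The first is the promoter of EZH2, the drug's target, whose start peak was kept (chr7:148884292-148884541, minus strand, 38 CpG).
EZH2: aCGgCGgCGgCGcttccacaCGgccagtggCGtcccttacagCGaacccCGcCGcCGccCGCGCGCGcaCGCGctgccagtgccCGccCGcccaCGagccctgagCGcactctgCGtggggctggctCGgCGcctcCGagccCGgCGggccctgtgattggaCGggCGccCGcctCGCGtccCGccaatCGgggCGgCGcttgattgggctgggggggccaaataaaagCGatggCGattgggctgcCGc
The start peaks at CNPPD1, a cyclin-like gene (chr2:219177822-219178071, minus strand, 13 CpG), and PCDHB1, a clustered protocadherin of neural cell adhesion (chr5:141051124-141051373, plus strand, 5 CpG), were among the lost gene peaks of largest area.
CNPPD1: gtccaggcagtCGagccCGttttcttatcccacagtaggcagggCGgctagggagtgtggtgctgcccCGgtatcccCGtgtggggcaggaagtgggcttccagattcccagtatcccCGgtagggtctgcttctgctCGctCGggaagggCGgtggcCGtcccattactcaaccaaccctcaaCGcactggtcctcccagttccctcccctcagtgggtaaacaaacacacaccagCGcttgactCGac
PCDHB1: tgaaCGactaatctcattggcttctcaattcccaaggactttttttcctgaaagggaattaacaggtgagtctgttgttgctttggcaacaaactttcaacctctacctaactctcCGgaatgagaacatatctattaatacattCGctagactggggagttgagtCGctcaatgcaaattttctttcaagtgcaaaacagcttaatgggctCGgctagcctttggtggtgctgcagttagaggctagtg
The start peaks at C13orf46, an uncharacterised gene (chr13:113974077-113974326, minus strand, 16 CpG), and EGFL7, a secreted factor of endothelial cells (chr9:136658606-136658855, plus strand, 14 CpG), were among the gained gene peaks of largest area.
C13orf46: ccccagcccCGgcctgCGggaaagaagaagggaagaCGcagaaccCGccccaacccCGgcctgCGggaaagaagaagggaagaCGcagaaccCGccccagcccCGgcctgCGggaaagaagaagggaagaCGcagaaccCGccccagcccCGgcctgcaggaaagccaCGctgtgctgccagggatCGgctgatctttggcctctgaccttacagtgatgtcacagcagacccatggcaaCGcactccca
EGFL7: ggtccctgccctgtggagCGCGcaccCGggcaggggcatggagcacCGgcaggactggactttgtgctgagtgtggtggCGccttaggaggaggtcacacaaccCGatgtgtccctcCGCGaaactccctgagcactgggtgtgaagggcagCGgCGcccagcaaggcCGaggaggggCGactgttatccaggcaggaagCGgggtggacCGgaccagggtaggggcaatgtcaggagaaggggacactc
The EZH2 window had a GC content of 75.6% and the PCDHB1 window 42.8%. In the C13orf46 window a stretch of 58 bp repeated the sequence 47 bp before it.

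The vehicle list lost 22990 of its 61016 peaks (37.7%), and 2867 of the 41086 EZH2i peaks were gained (6.98%). Losses were mostly of distal peaks: 93.4% of the 11629 promoter peaks were kept (92.9 to 93.8), 81.3% of the 3593 gene-end peaks (80.0 to 82.5) and 52.9% of the 45794 distal peaks (52.5 to 53.4). Promoter and gene-end peaks together were kept more often than distal peaks by 37.6 points (36.9 to 38.2). Distal peaks had smaller areas, with a median of 469 against 2169 at promoters, and the share kept climbed with area from 13.5% in the lowest decile to 99.98% in the highest. Within area deciles the promoter and gene-end share still exceeded the distal share, by 11.5 points on average. In the fifth decile 79.2% of promoter peaks were kept (74.9 to 82.9) and 57.4% of distal peaks (56.1 to 58.7).

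**Figure D1:**
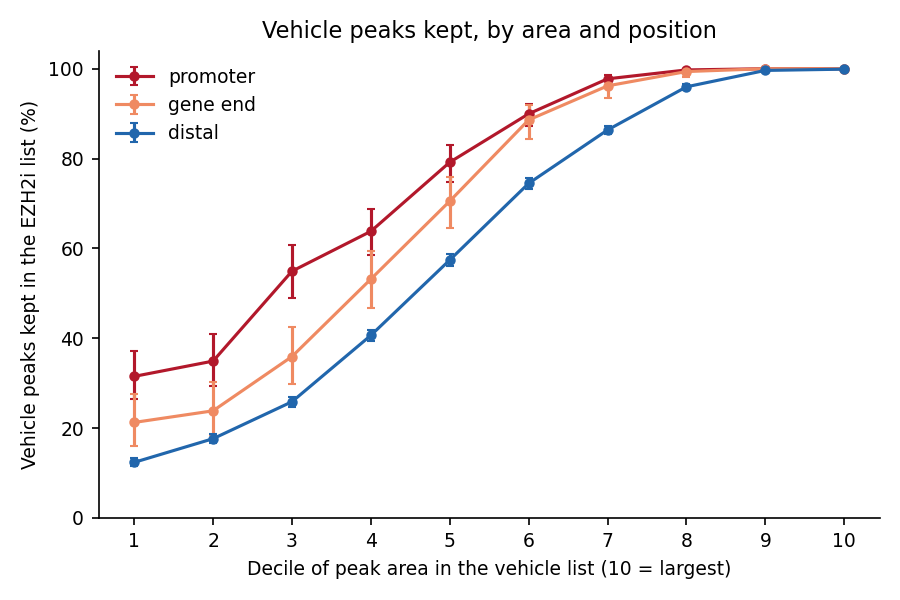
Percentage of vehicle peaks kept in the EZH2i list (y axis) by decile of peak area in the vehicle list (x axis), for promoter, gene-end and distal peaks, with Wilson 95% intervals as bars. Promoter points lie above distal points, for example 63.8% against 40.6% in the fourth, and all 3 classes come close to 100% in the last 2.

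The excess of losses over gains depended on the length of the lists. Limited to the top 41086 peaks by area in each, the vehicle list lost 7289 (17.7%) and the EZH2i list gained 6841 (16.7%). List length, read depth and a true narrowing of open chromatin cannot be told apart here. The border of the rule mattered little, since the smallest cover of a kept peak was 19 bp, the smallest gap of a lost peak was 5 bp and only 417 lost peaks (1.81%) had an EZH2i peak within 200 bp. Lost peaks had a median area of 315 against 1004 for kept ones, and gained peaks 272 against 621 for shared ones. Counting peaks of any class by distance to the nearest listed start (or gene end where none is listed), those over 100 kb away were kept in 49.4% of cases against 53.4% expected from their areas, and those 1 to 10 kb away in 59.5% against 57.1%.

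At the level of genes, 13623 of 19974 protein-coding genes had a vehicle peak within 1 kb of a listed start, or of either end where no start was listed. It is called the start peak here, and for the latter genes it may lie at either end. Of these, 530 had none in the EZH2i list (3.89%), and 126 of the 6351 genes without a vehicle peak had one (1.98%). With lists of equal length the balance turned, to 199 genes lost and 378 gained. The lost gene peak of largest area lay at the shared start of CNPPD1 and RETREG2 on chromosome 2 (219177675 to 219178721), with 26.0% of vehicle peaks larger. The next was a start of PLAGL1, an imprinted zinc-finger regulator of growth (chromosome 6, 143964030 to 143964711, area 1208). Gene-end peaks were lost beside DMBX1, a homeobox gene of brain development (area 1175), CNTRL, a centriole protein gene (1162), and DUSP6, the phosphatase that restrains ERK signalling (1124). Those at CNTRL and DUSP6 were also absent from the CBPi and FSK lists, which were compared with the same vehicle list. Start peaks were lost at PCDHB1 (area 1100), at the gene model LOC124903319 (1091) and at P2RX7, an ATP-gated ion channel (1049). None of these 8 was among the strongest vehicle peaks: between 26.0% and 30.4% of the list had a larger area. The 3 lost distal peaks of largest area were stronger than these. The top one, of 2019 bp and area 3130, lay far from any listed start on chromosome 13 (89659066 to 89661084), with 8.54% of vehicle peaks larger. The other two were neighbours inside CEP112, a centrosomal protein gene on chromosome 17 (areas 1984 and 1868). All 3 overlapped a peak in the FSK list, and the first also in the CBPi list.

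The gained gene peaks of largest area were wide and lay in a few stretches of the genome. The largest covered 7764 bp beside LZTR1 and THAP7 on chromosome 22 (20991216 to 20998979, area 4463, 2.43% of EZH2i peaks larger). LZTR1 is an adaptor for the degradation of RAS proteins. Start peaks were gained at C13orf46 (5359 bp, area 2746), EGFL7 (5524 bp, 2125), SLC34A3, a renal phosphate transporter (3894 bp, 2119), and MAMDC4 (2224 bp, 1515). Gene-end peaks were gained at RAMP3, a receptor activity-modifying protein (1796 bp, 1432), EXD3 (3122 bp, 1255) and PTGDS, a prostaglandin synthase (2978 bp, 1238). All 8 positions also held a peak in the CBPi list and in the FSK list. The vehicle list was thus the 1 list of the 4 without a peak at these 8 places. The 3 gained distal peaks of largest area lay at C13orf46 (113928137 to 113931686), in DGKQ on chromosome 4 (961825 to 967344) and in RASA3 (113996124 to 113998941).

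Of 597 windows of 5 Mb, the 10 with most gained peaks held 1079 of the 2867 (37.6%), against 7.19% of all EZH2i peaks and 4.22% of vehicle peaks. They lay on chromosome 9 (130 to 140 Mb), chromosome 7 (40 to 55 Mb), chromosome 22 (20 to 25 Mb), chromosome 13 (110 to 115 Mb), chromosome 15 (70 to 75 Mb), and in the first 5 Mb of chromosomes 4 and 5. Inside them 36.5% of EZH2i peaks were gained and outside 4.69%. Gained peaks there had a median width of 834 bp, against 408 bp elsewhere. The same windows, picked on the EZH2i list, held gained shares of 27.7% with CBPi (9.79% outside) and 35.6% with FSK (14.6% outside), each against the same vehicle list. Why the gains crowd there was not tested. The widest EZH2i peak, 22644 bp inside CAMK2B, a neuronal calmodulin-dependent kinase gene (chromosome 7, 44227742 to 44250385), lay over 10 vehicle peaks of at most 2710 bp. By chromosome, the gained share was 22.5% on chromosome 22, 15.2% on 7, 14.7% on 9 and 12.5% on 13, and between 2.23% and 7.96% on the others. Chromosome 19, which is dense in genes, kept 83.0% of its vehicle peaks, against 71.2% expected from peak area and 74.5% from area and class.

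**Figure D2:**
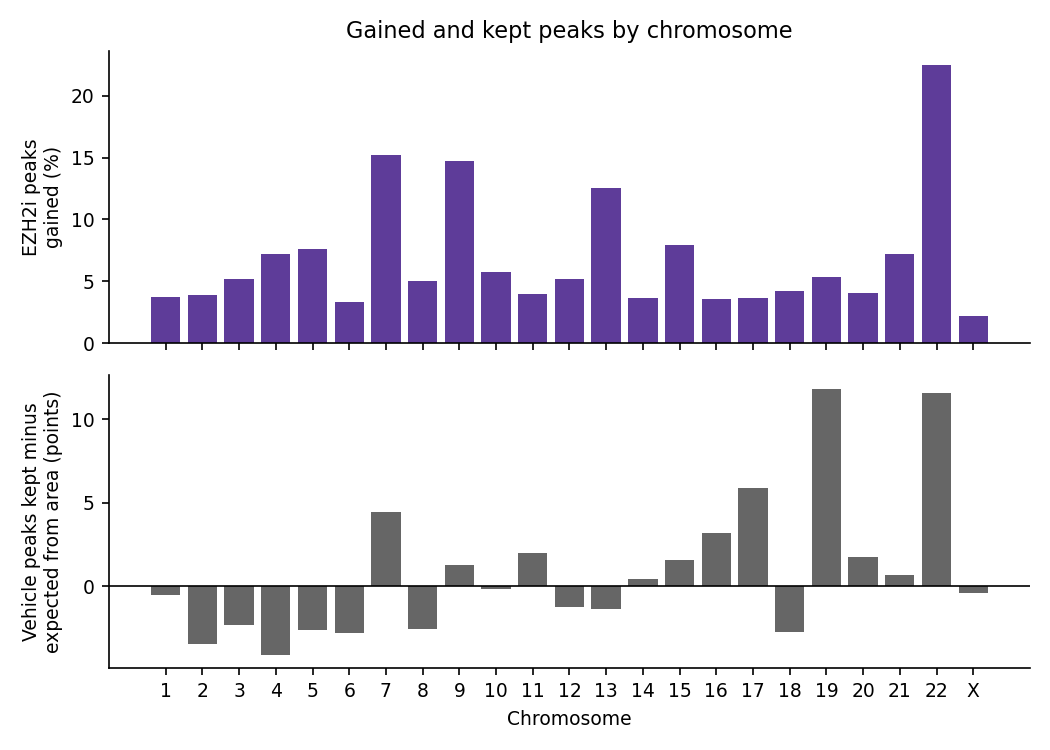
Top, percentage of EZH2i peaks that were gained, by chromosome. Bottom, percentage of vehicle peaks kept minus the percentage expected from peak area, in points. Chromosomes 22, 7, 9 and 13 stand highest in the top panel (22.5%, 15.2%, 14.7% and 12.5%), and chromosomes 19 and 22 in the bottom panel (11.8 and 11.6 points).

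For peaks present in both lists, the rank of the area was compared. There were 36407 one-to-one pairs. In addition 636 vehicle peaks were split over several EZH2i peaks, and 422 EZH2i peaks joined several vehicle peaks. Ranks run from 0 (smallest) to 100 (largest) among the pairs of each list. Promoter pairs kept their order closely (Spearman 0.97 across 10111 pairs) and distal pairs less so (0.76 across 23544 pairs), as descriptions of pairs that share libraries. These values are not matched for area: decile 10 of vehicle area, where ranks moved least, held 2705 promoter and 441 distal pairs. In decile 3 the quartiles of rank change were -7.91 and 14.5 at promoters and -11.0 and 10.0 at distal pairs. In decile 6 they were -3.98 and 7.68 against -14.4 and 3.77. More promoter pairs ranked over 10 points higher with EZH2i than over 10 points lower, 883 (8.73%) against 492 (4.87%). Among distal pairs 4786 ranked higher (20.3%) and 5275 lower (22.4%). The median change was 0.17 points higher at promoters and 0.29 points lower at distal pairs. Most pairs, 75.2%, were narrower in the EZH2i list, with a median log2 width ratio of -0.17.

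**Figure D3:**
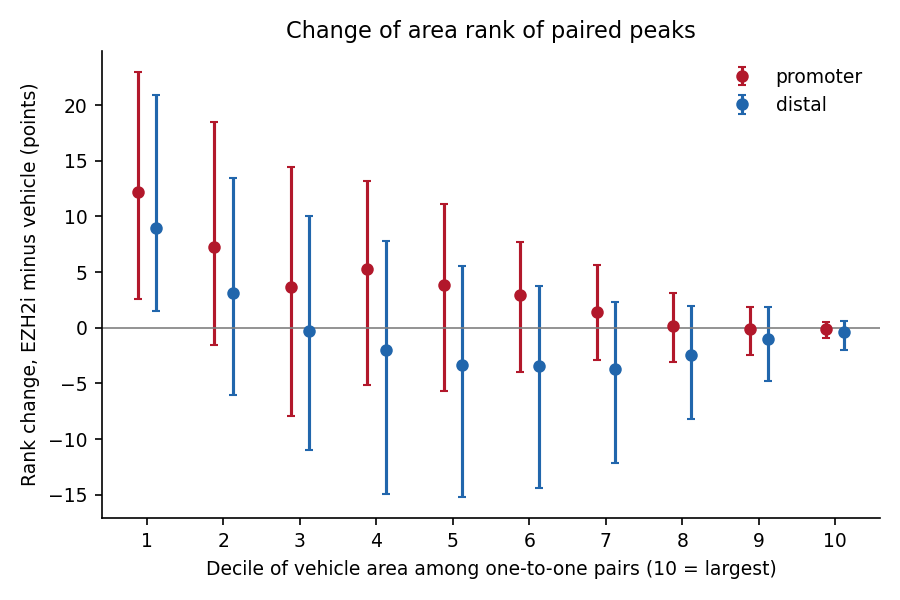
Change of area rank, EZH2i minus vehicle, in points (y axis), by decile of vehicle area among one-to-one pairs (x axis). Points are medians and bars run from the lower to the upper quartile. In the fourth to seventh deciles the promoter medians lie above 0 (5.28 to 1.43) and the distal medians below it (-2.00 to -3.68), while the lowest decile can hardly do other than gain rank.

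The largest upward shifts among gene pairs again lay mostly in the crowded windows. A peak at an end of MMP11, a matrix metalloproteinase gene (chromosome 22), was 365 bp wide at rank 0.52 with vehicle and 6302 bp wide at rank 91.8 with EZH2i. Start peaks at ZMIZ2, an androgen receptor coregulator (rank 4.80 and 93.0), and NPC1L1, the intestinal cholesterol transporter (7.66 and 95.8), both on chromosome 7, showed the same form, as did peaks at CPLX1 (7.87 and 88.1), RASA3 (0.58 and 77.4), OGDH (0.32 and 76.1) and CCDC116 (1.31 and 61.6). The vehicle and EZH2i summits lay 4504 bp apart at MMP11, 2382 bp at ZMIZ2, 2426 bp at CPLX1, 1332 bp at CCDC116 and 934 bp at OGDH. At NPC1L1 and RASA3 they lay 17 and 3 bp apart, where the median over all pairs was 17 bp. A pair thus need not be a single peak that grew. Within the 10 windows, which were picked for their gained peaks, 93 of 1685 pairs ranked more than 50 points higher and 3 more than 50 points lower. Outside them the counts were 42 and 88 of 34722 pairs. The distal pairs with the largest upward shifts lay in RASA3 (2.67 and 94.1, 1.91 and 87.5), in CAMK2B (1.65 and 90.0) and near RAMP3 (5.41 and 90.7). Their summits lay 1938, 3, 254 and 14 bp apart, in that order.

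Of the 8, 1 lay outside the crowded windows. The start peak of EPB41L3, a membrane-cytoskeleton protein often silenced in tumours, was 353 bp wide at rank 0.04 and 978 bp wide at rank 59.9, and it had no counterpart in the CBPi and FSK lists. Its vehicle and EZH2i summits lay 624 bp apart. Other pairs outside the windows were chosen after their values were seen. SSTR2, a somatostatin receptor, ranked at 4.99 and 60.0, and its peak widened from 264 bp to 1425 bp. KCTD16 (6.54 and 58.9), TPRG1 (12.6 and 64.6), the homeobox gene BARX1 (0.92 and 51.2) and TNR, an extracellular matrix protein of the nervous system (18.3 and 67.3), followed. Distal pairs inside FOXP1 (2.46 and 67.0) and LMNA (6.89 and 70.4) had the largest upward shifts among distal pairs there.

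The pairs with the largest downward shifts were narrower in the EZH2i list, as were 75.2% of all pairs. Area adds up along a peak, so width and area rank are not separate measures. The narrowing was slight at CYS1 (821 and 726 bp). The peak beyond an end of BUB3, a spindle checkpoint gene, was 1296 bp wide at rank 75.5 with vehicle and 367 bp wide at rank 12.7 with EZH2i. The start peak of GBP1, an interferon-induced GTPase, was 1490 bp at rank 62.0 and 459 bp at rank 0.18. CSRNP1 (71.8 and 15.0), C2CD5 (70.1 and 16.4), ZC3HC1 (52.9 and 1.40), CYS1 (53.7 and 2.88), MCTS1 (64.2 and 15.7) and TGFB1I1 (63.4 and 15.4) completed the 8. The strongest shift among distal pairs was at a peak 4365 bp wide on chromosome 2 (238535342 to 238539706), over 100 kb from the nearest listed start, that of ASB1. It ranked at 91.6 with vehicle and at 3.18 with EZH2i, where 809 bp remained. Others lay in SEMA4D (70.5 and 1.17), beyond AEBP2 (79.3 and 10.2) and in AGBL4 near BEND5 (70.5 and 2.36).

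The start peaks of the Polycomb machinery were among the many kept, where 3.89% of all genes with one lost it. All 14 PRC2 genes had one in both lists, as did all 20 genes of writers and remodellers that oppose Polycomb. Of 21 PRC1 genes 19 had one with vehicle, and all 19 kept it. EZH2 itself ranked at 98.6 with vehicle and 97.8 with EZH2i, EED at 79.3 and 85.1, and RBBP4 at 71.0 and 77.1. SUZ12 ranked higher with EZH2i, at 49.2 against 27.4. Ranks over 10 points higher were found for 2 of 14 PRC2, 2 of 18 PRC1 and 3 of 17 opposing pairs, and none was over 10 points lower. Over all pairs, 8.73% at promoters and 13.3% at gene ends ranked that much higher, and 4.87% and 9.19% lower, so these counts lie near the background. Among them were SUZ12 and EZH1, the paralogue of EZH2 (61.1 and 73.8), the PRC1 reader CBX7 (56.4 and 68.3), and the H3 demethylase KDM6A (53.0 and 67.9), the acetyltransferase EP300 (43.8 and 57.5) and the remodelling ATPase SMARCA4 (47.4 and 66.7). Against the same vehicle list, CBPi gave SUZ12 ranks of 33.3 and 56.9 and EZH1 64.8 and 79.1, and FSK gave 34.4 and 26.7 and 65.7 and 71.6. CBPi also gave CBX7 60.5 and 71.3, KDM6A 57.4 and 72.4 and SMARCA4 52.3 and 70.8. FSK gave CBX7 61.5 and 71.6, EP300 50.1 and 60.5 and SMARCA4 53.4 and 47.1. Ranks are among the pairs of each comparison. Counting all peaks assigned to the nearest gene within 100 kb, the PRC2 genes kept 40 of 65 (61.5%, 49.4 to 72.4, 67.4% expected from area) with 0 gained. The PRC1 genes kept 50 of 66 (75.8%, 64.2 to 84.5, 65.5% expected). Much of that excess came from BCOR, which had no start peak and lost 4 of 13 with 8 expected. Over all genes 66.2% of assigned peaks were kept.

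Among HOX genes, the classical Polycomb targets that pattern the body axis, 27 of 39 had a vehicle start peak. HOXA9 and HOXB6 had none in the EZH2i list (vehicle areas 216 and 270, near the threshold), and HOXB8 gained one (area 207). These counts, 2 of 27 and 1 of 12, stand beside the 3.89% and 1.98% of all genes. HOXB2 lost both of its assigned vehicle peaks, while another peak at the gene stood in the EZH2i list. Of 19 HOX start pairs, HOXC12 (0.62 and 24.9) and HOXB13 (50.9 and 66.9) ranked over 10 points higher and HOXC9 (48.2 and 24.6) lower. With CBPi against the same vehicle list, HOXC12 (1.09 and 38.9), HOXB13 (55.5 and 71.5) and HOXC9 (53.0 and 66.8) all ranked higher. With FSK the ranks were 1.15 and 6.29 for HOXC12, 56.6 and 39.2 for HOXB13, and 54.1 and 61.8 for HOXC9. Of 70 other developmental transcription factors, 53 had a vehicle start peak and 1, NEUROD1, a neuronal differentiation factor, had none with EZH2i. None of the other 17 gained one. Of their 49 start pairs, NKX2-1 (60.1 and 74.1), NKX2-2 (40.2 and 56.1) and PAX6 (11.3 and 26.2) ranked higher, and SIM1 (60.3 and 34.8) and ZIC1 (82.7 and 69.6) lower. CBPi gave SIM1 ranks of 64.1 and 32.6, ZIC1 84.3 and 78.3 and PAX6 16.1 and 18.8. It gave NKX2-1 63.8 and 57.3 and NKX2-2 45.5 and 33.3. The list kept 174 of 240 assigned peaks (72.5%, 66.5 to 77.8), with 65.4% expected from area and 7 of 181 EZH2i peaks gained (3.87%).

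Tumour suppressor genes that other work reported as EZH2-repressed showed 1 gained start peak of 2 possible, at RUNX3, a RUNT-domain transcription factor (742 bp, area 300), where 1.98% of all such genes gained one. The start peak of KLF2, a growth-restraining zinc-finger factor, ranked at 69.2 with vehicle and 81.4 with EZH2i, and was the only 1 of 15 to shift by more than 10 points. Over all pairs 8.73% at promoters and 13.3% at gene ends ranked that much higher, so this count lies near the background. Against the same vehicle list KLF2 ranked at 72.1 and 84.2 with CBPi and 72.8 and 81.7 with FSK. The list kept 57 of 81 peaks (70.4%, 66.8% expected), and 7 of its 63 EZH2i peaks were gained (11.1%), against 6.42% of all assigned EZH2i peaks.

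Steroidogenic genes kept most of their peaks, but several start peaks ranked lower. Of 98 assigned peaks 67 were kept (68.4%, 66.9% expected), and 17 of 18 start peaks. Of 15 start pairs, 4 ranked over 10 points lower and 0 higher, where over all pairs 4.87% at promoters and 9.19% at gene ends ranked that much lower. Those shares are not matched for vehicle rank, and the 4 had vehicle ranks from 52.5 to 61.4, where ranks moved more than at the top. In decile 6 of vehicle area the lower quartile of the change was -3.98 points for promoter pairs and -11.2 for all pairs. In decile 10 it was -0.95 and -1.10. AKR1C3, a reductase of androgen and prostaglandin metabolism, ranked at 52.5 with vehicle and 5.31 with EZH2i, its peak 811 bp and 292 bp wide. CYP11A1, the side-chain cleavage enzyme that starts steroid synthesis, ranked at 59.7 and 32.1 (1173 bp and 557 bp). CYP17A1, the hydroxylase on the way to cortisol and androgens, ranked at 56.7 and 40.1, and STAR, the mitochondrial cholesterol carrier, at 61.4 and 50.7. NR5A1, their common regulator, ranked at 90.2 and 92.5. The 1 lost start peak was that of MC2R, the ACTH receptor gene (vehicle area 338). The median change over the 15 pairs was 0.35 points higher with EZH2i. Against the same vehicle list, AKR1C3 ranked at 57.0 and 51.8 with CBPi and 58.0 and 37.1 with FSK, and CYP17A1 at 60.8 and 36.5 with CBPi and 61.7 and 59.0 with FSK. Housekeeping genes give a sense of the scatter: of 19 start pairs 1 ranked over 10 points higher, TUBB (58.9 and 71.4), and 1 lower, a side peak at ACTB (45.4 and 19.1). The largest peak at ACTB was not a one-to-one pair, and 1.23% of vehicle peaks were larger than it.

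IGF2, the growth factor gene known for overexpression in adrenocortical carcinoma, had a gene-end peak at rank 66.5 with vehicle (1645 bp) and 42.6 with EZH2i (655 bp). DLK1, another imprinted gene and a marker of adrenal progenitors, ranked at 7.16 and 36.7. Both shifts were also seen with CBPi against the same vehicle list, for IGF2 at 69.6 and 41.5 and for DLK1 at 10.8 and 45.6. With FSK the ranks were 70.4 and 64.1 for IGF2 and 11.4 and 10.7 for DLK1. PLAGL1 lost 8 of its 11 assigned peaks, with 3.87 expected from their areas, although its main start peak was kept (91.9 and 90.5). KCNQ1 lost its gene peak (area 258). The imprinted list kept 69 of 107 peaks (64.5%, 56.2% expected), and 21 of its 90 EZH2i peaks were gained. Of these, 44 kept and 20 gained peaks belong to GRB10, in a crowded window of chromosome 7, and without the crowded windows the kept share was 51.0%, with 64.4% expected.

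Among targets of Wnt and β-catenin signalling, a pathway often activated in this tumour, CCND1, the cyclin D1 gene, had a gene-end peak at rank 8.40 with vehicle (388 bp) and 56.0 with EZH2i (776 bp). With CBPi the same peak ranked at 12.4 and 40.5, and in the FSK list it was absent. The start peak of LEF1, a transcription factor partner of β-catenin, covered 3449 bp with vehicle (108166471 to 108169919). The largest EZH2i peak there covered 1119 bp at 1 end of it (108166467 to 108167585). It was not a one-to-one pair, so these widths do not compare like with like. NOTUM, a secreted Wnt inhibitor, gained a gene-end peak (973 bp, area 601). The list kept 75 of 105 peaks (71.4%, 66.6% expected), and MYC ranked at 99.97 and 99.98.

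Interferon and antigen presentation genes are known to be derepressed by EZH2 inhibition in some tumours. Most already had a start peak with vehicle, so few could gain one. Of 17 interferon and double-stranded RNA sensing genes with a vehicle peak, IFIT2 (area 522) and ISG15 (344), both interferon-induced, had none with EZH2i, beside 3.89% over all genes. The 4 genes without a vehicle peak gained 0, and at 1.98% over all genes a gain among so few would be rare. IFIT3 (36.3 and 11.8) and TLR3, an RNA sensor (30.6 and 19.1), ranked over 10 points lower, and 0 of 15 pairs higher. FSK gave IFIT3 ranks of 43.0 and 12.2 and CBPi 41.9 and 40.2 against the same vehicle list. TLR3 ranked lower with both, at 37.6 and 8.58 with FSK and 36.4 and 16.2 with CBPi. Of 15 antigen presentation genes, HLA-C lost its start peak (area 368), while HLA-E ranked over 10 points higher (55.9 and 66.9). With CBPi HLA-E ranked at 60.1 and 75.8, and with FSK at 61.0 and 56.8. HLA class I genes are near-identical in part, so reads may be split or shared between them. Cell cycle and E2F genes kept all 26 start peaks, a count near the 3.89% lost over all genes, and AURKB, a mitotic kinase, was the 1 of 23 pairs that ranked over 10 points lower (70.5 and 57.9).

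Lists of cell type markers were counted in the same way. Of 10 adrenocortical markers 8 had a vehicle start peak, against 4 of 10 chromaffin, 3 fibroblast, 2 endothelial and 1 immune marker. Over all genes 13623 of 19974 had one, so the adrenocortical count lies near the background and the other lists lie below it. Chromaffin markers kept 27 of 31 peaks (87.1%, 53.9% expected) and 19 of their 45 EZH2i peaks were gained. Of these, 19 kept and 18 gained peaks belong to DDC, in a crowded window of chromosome 7, and without those windows 63.6% were kept. The 9 gained peaks among 27 of endothelial markers all belong to EGFL7. Fibroblast markers gained 0 peaks and immune markers 1, at CD3E.

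**Figure D4:**
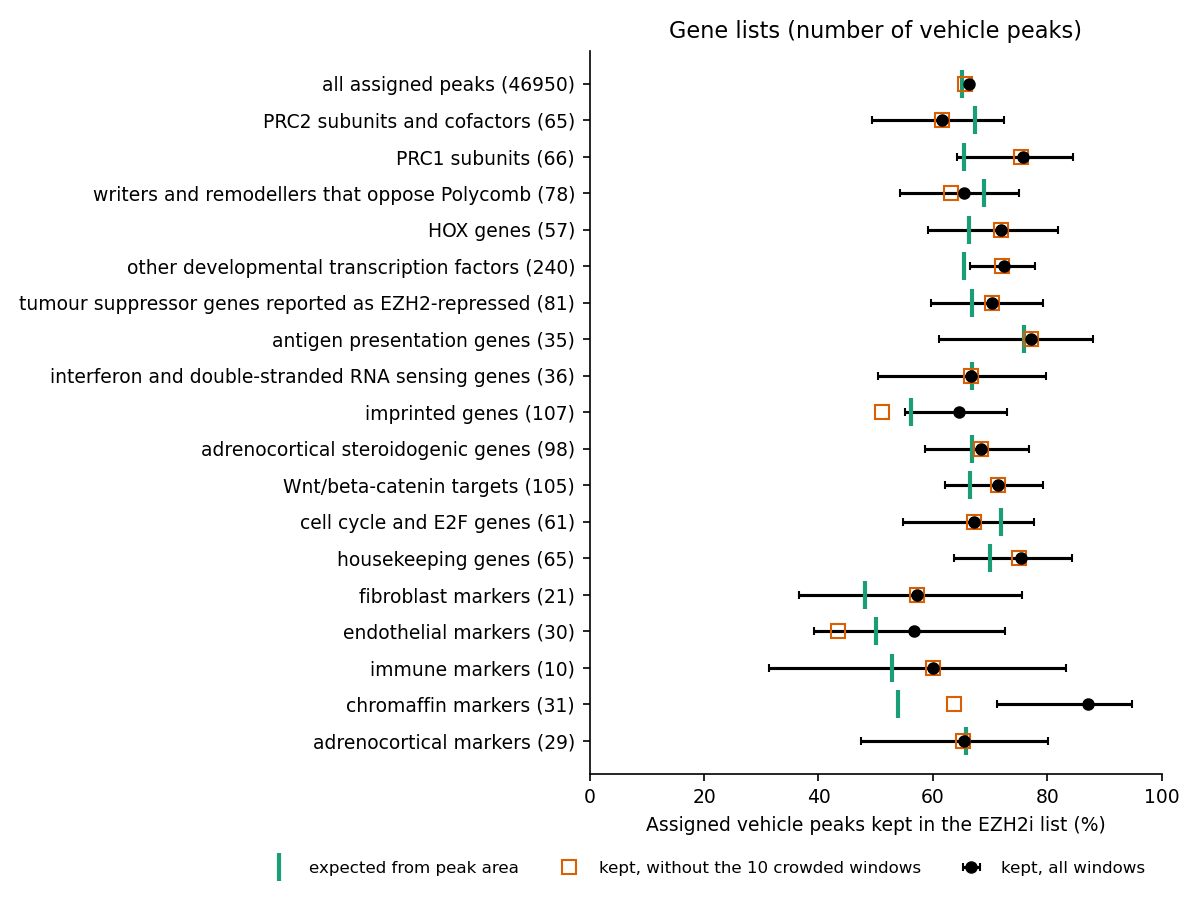
Percentage of vehicle peaks assigned to each gene list that were kept (black points, Wilson 95% intervals), the percentage expected from peak area (green ticks) and the percentage kept without the 10 crowded windows (orange squares). Chromaffin markers stand apart at 87.1%, and move to 63.6% without those windows. Imprinted genes move from 64.5% to 51.0%.

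Promoter sequence differed between kept and lost starts. Of 22012 RefSeq windows of 300 bp, 13452 lay under a kept peak, 399 under a lost one and 112 under a gained one. The ratio of observed to expected CpG had a median of 0.85 in kept, 0.63 in lost, 0.55 in gained and 0.29 in the 7974 windows with no peak in either list. Windows under 0.6, called CpG-poor, made up 12.3% of kept and 47.9% of lost windows. CpG-rich windows with a vehicle peak were kept in 98.3% of cases and CpG-poor ones in 89.7%, a difference of 8.59 points (7.26 to 10.1). These windows were put in area deciles of their own, not those of the whole vehicle list. The lowest ran from 200 to 758 and the second to 1258. Within them the mean difference was 2.54 points, and losses occurred only in the lowest 2. In the lowest, 78.9% of CpG-rich windows were kept (76.3 to 81.4) and 57.0% of CpG-poor ones (52.2 to 61.7). The sequences above show the contrast, from 38 CpG at EZH2 to 5 at PCDHB1.

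**Figure D5:**
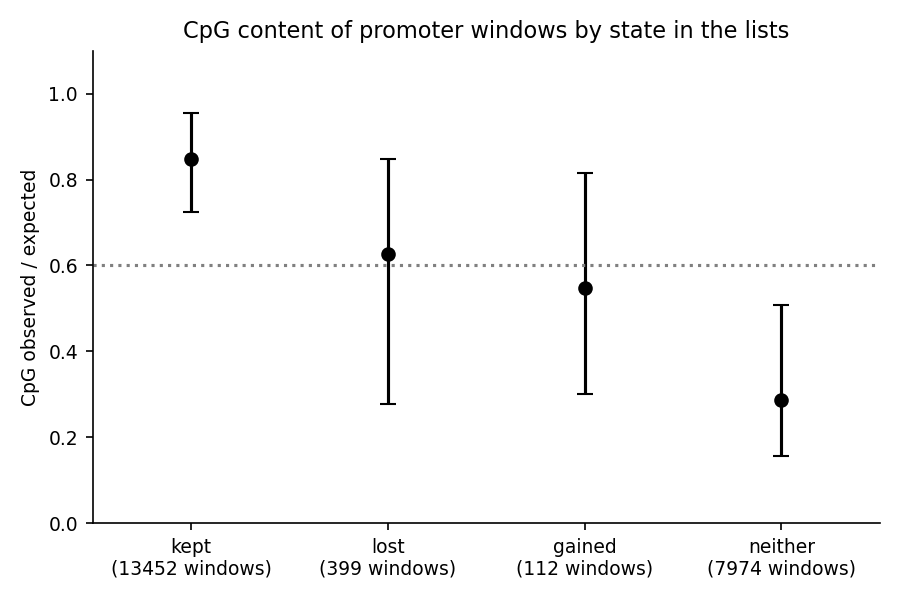
Ratio of observed to expected CpG in 300 bp promoter windows (y axis) by state of the window (x axis), as medians with lower and upper quartiles. Kept windows centre on 0.85, lost windows on 0.63, gained windows on 0.55 and windows with no peak on 0.29, and the dotted line marks 0.6.

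Short motifs were searched on both strands of the same windows. GGGCGG, the GC box of SP and KLF factors, was present in 45.1% of lost and 73.9% of kept windows, against 56.3% of all. In the lowest area decile of the windows the lost share was 18.4 points lower. That decile spans areas from 200 to 758, so it matches area only coarsely. In the vehicle list, promoter peaks in decile 1 (median area 220) were kept in 31.5% of cases. Those in decile 6 (median area 666) were kept in 90.0%. CCGGAAG, an ETS motif, stood in 11.3% of lost and 18.2% of kept windows (12.8% of all), and AGGNGGC, the CTCF core, in 38.1% and 48.5% (41.1% of all). Within the lowest area decile these lost shares were lower by 5.56 and 5.90 points. TGANTCA, the AP-1 motif, stood in 8.52% of lost and 3.87% of kept windows, and AAGGTCA, the motif of NR5A1, in 4.26% and 2.14%, against 6.16% and 3.21% of all. Within the lowest area decile these differences were smaller, at 2.60 and 1.43 points. Windows with no peak in either list held both motifs more often than lost windows, at 9.84% and 4.98%. They held GGGCGG in 27.2%, CCGGAAG in 3.91% and AGGNGGC in 28.9%, all below the lost windows. The CCAAT box of NFY was in 29.6% of lost and 35.6% of kept windows, but within the lowest area decile the shares were nearly equal, with 0.17 points more in lost windows. GGGCGG overlaps CpG content itself. A match describes the letters and not a bound factor, and motifs of distal peaks were not searched, as no genome sequence was used.

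Distal losses exceeded those expected from area most at 6 genes. LRRK2, a kinase gene linked to Parkinson disease, lost 9 of 10 (4.19 expected), BEND5 10 of 12 (5.31), GALNT10, a glycosyltransferase, 11 of 15 (6.46), and PDZRN3, a ubiquitin ligase, 9 of 17 (4.51). FBN2, a fibrillin of elastic fibres, lost 6 of its 7 distal peaks, with 2.10 expected from their areas. AEBP2, a PRC2 cofactor gene, lost 11 of 17, with 6.58 expected, while its start peak stayed at rank 99.6 and 99.7. At the other end, COBL lost 7 of 67 where 34.6 were expected, ADCY1, an adenylyl cyclase of neurons, 1 of 36 with 20.3 expected, GRB10 14 of 55 with 28.7, and CAMK2B 0 of 31 with 12.0. All 6 genes that lost fewest beyond expectation, these 4 with RAMP3 and IKZF1, lie on chromosome 7 and each gained at least 14 distal peaks.

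Set side by side against the same vehicle list, promoter peaks were kept in 93.4% of cases with EZH2i, 96.9% with CBPi and 93.4% with FSK. Distal peaks were kept in 52.9%, 60.8% and 62.7%. Gained peaks numbered 2867, 5067 and 8100. The 3 comparisons share the vehicle libraries and the lists differ in length, so the order of these shares was not tested.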

How the data were processed

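Chromatin accessibility was measured by ATAC-seq in 2 libraries per group. Per the submitters' processing notes, Bowtie2, Genrich and deepTools 2.0 were used on hg38. Settings, and how a group's libraries were joined: not given in the sources used here. The authors deposited 1 peak list per group with 3 values per peak: a score, a signal (the area) and the −log10 p at the summit. No read counts were used, so depth and precision per sample are unknown.

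From these lists, overlaps, classes, ranks and Wilson intervals (Newcombe for differences) were computed with Python 3.11.15, NumPy 2.4.6, pandas 2.3.3 and SciPy 1.17.1, and the code was tested on simulated lists. The expected share kept is the mean over 20 area bins of the vehicle list. Gene coordinates and promoter windows came from RefSeq tables of GRCh38.p14, which list starts for 15812 of 19974 coding genes, and the sequences are theirs. Of the 18 gene lists, 1 imprinted gene did not match. Members and lists were chosen with earlier results of these data known. Named were the 8 lost and 8 gained gene peaks and the 3 lost and 3 gained distal peaks of largest area, the 8 gene and 4 distal pairs with the largest rank change each way (mean rank over 25), up to 4 genes per list, the 6 genes with most and fewest distal losses beyond expectation, and PRC2 core genes. Other genes named for a rank change over 10 points were chosen after their values were seen. Alternatives changed the overlap, the area threshold, the list length, the distance to genes and the regions used. Some list members are not reported here by name.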

Additional observations from a re-analysis of the deposited data

How the results depend on the processing

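The differences between gene and distal peaks in share kept and in rank, and the width ratio, held their direction under the alternatives run for them, but their sizes moved. With an area of at least 400 in both lists, 15168 vehicle peaks were lost and 1290 gained, the share kept differed between gene and distal peaks by 41.61 points, and the median log2 width ratio was -0.14. With that threshold only in the list searched for a loss or gain, the values were 6851 lost, 532 gained, 21.16 points, 184 genes lost and 34 genes gained. With equal numbers of peaks by area they were 7289, 6841, 21.84 points, 199 and 378, and 21.44% of gained peaks lay in the crowded windows. By summit p they were 7804, 7317, 23.34 points, 165 and 669. The excess of lost over gained genes thus turned in both equal-length settings, and the cause was not tested. Requiring 50% cover gave a difference of 39.85 points, a gene window of 5 kb 29.01 points, and the mean within area deciles 11.54 points. The median rank difference between gene and distal pairs, 0.46 points as reported, was 1.70 by summit p, 0.86 within 5 kb and 3.76 within area deciles. Without the crowded windows, an alternative chosen after seeing the data, 1788 peaks were gained, the share kept differed by 38.42 points and the width ratio was -0.18. The NFY motif difference went from -6.00 points to 0.17, nearly none, within the lowest area decile of the windows, the only decile used. This matching was also chosen after seeing the data. Of 18 gene lists, 15 moved with equal-length lists, where the share kept over all assigned peaks itself rose from 66.24% to 85.12%. The lists above that share numbered 11 as reported and 13 with equal length. No paired analysis was possible because each group is 1 joint list, and for the same reason no replicate could be left out. Motif windows around peak summits were not run. Read depth is unknown, so what it limits cannot be given.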
